A study of Rattus norvegicus with 24 samples.

Results

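The transcripts described here are those of 8 genes of peptide signalling: the neuropeptide precursors Trh, Nmu, Cck, Nts and Npy, the granins Vgf and Scg2, and the prohormone convertase Pcsk1. They were read from all 50 probe sets that name 1 of these genes alone, out of 213067 probe sets on the array, and make up 8 of 16582 genes with a probe set of their own. A gene's value is the mean of the log2 values of its probe sets, so a difference of 1 is a doubling. The genes were listed with earlier results in the striatum known, so their striatal values are given as a description, without a test. Whether earlier results in the substantia nigra had a part in the choice is not known. The nigral values are read from a fit over all genes, and nothing is read from the count of listed genes called there.

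Messenger RNA was measured on 24 exon-level arrays, 12 from punches of lateral striatum (2 mm by 2 mm) and 12 from punches of substantia nigra (0.5 mm by 1.5 mm) of adult male Sprague Dawley rats. Each tissue had 4 groups of 3 arrays, each array a different rat. Dyskinetic rats had a unilateral lesion with 6-OHDA, a toxin taken up by dopamine neurons, then daily levodopa, the precursor of dopamine, and developed abnormal involuntary movements. Non-dyskinetic rats had the same lesion and the same drug and did not develop them. Lesioned vehicle rats had the toxin and daily saline, and intact rats had saline with ascorbic acid in place of the toxin, then levodopa. Levodopa thus reached every group except the lesioned vehicle rats, and no group had neither the toxin nor the drug. Treatment began 3.5 weeks after surgery, movements were rated in 7 sessions, and a lesion counted as a success above 90% loss of striatal dopamine. The labels give neither the side sampled nor the levodopa dose, nor the time from the last injection to death, on which levels of activity-induced transcripts depend.

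Neuropeptides are cut from larger precursor proteins inside dense-core granules and released from neurons during intense firing. The convertase encoded by Pcsk1 makes many of these cuts in the regulated secretory pathway. The acidic proteins secretogranin II (Scg2) and VGF (Vgf) are granule cargo and are themselves cut into peptides. Trh encodes the precursor of thyrotropin-releasing hormone, Nmu that of neuromedin U, Cck that of cholecystokinin, Nts that of neurotensin and Npy that of neuropeptide Y. In the striatum, projection neurons carry most peptide precursors, neuropeptide Y marks a small class of interneurons, and neurotensin is known to depend on dopamine tone. In the midbrain, many dopamine neurons make cholecystokinin and carry the neurotensin receptor encoded by Ntsr1. Transcription of several of these genes is known to follow neuronal activity through the factor CREB, which binds the cyclic AMP response element, and through AP-1, a dimer of Fos and Jun proteins.

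The promoter windows are shown because the known activity elements are short enough to be seen in the sequence. The genes were listed with striatal results known, so nothing is read from the number of windows with a match. RefSeq windows on rat assembly GRCr8, from 250 bases before to 50 bases after the start, were matched for 6 genes, and no window is shown for Cck and Pcsk1. Both patterns were chosen after these windows were seen, and both strands were searched. TGACNTCA, a form of the cyclic AMP response element, lay in 4 of the 6 windows and in 10.2% of all 33469 windows. TGANTCA, the AP-1 element, lay in 2 of the 6 and in 7.33% of all windows. The Trh window (chr4:126301713-126302012, minus strand), the Nmu window (chr14:32198693-32198992, plus strand) and the Nts window (chr7:39460839-39461138, minus strand) follow with those of Vgf (chr12:25276971-25277270, minus strand) and Scg2 (chr9:88256817-88257116, minus strand), 5′ to 3′ along the gene, with matches in capitals.
Trh: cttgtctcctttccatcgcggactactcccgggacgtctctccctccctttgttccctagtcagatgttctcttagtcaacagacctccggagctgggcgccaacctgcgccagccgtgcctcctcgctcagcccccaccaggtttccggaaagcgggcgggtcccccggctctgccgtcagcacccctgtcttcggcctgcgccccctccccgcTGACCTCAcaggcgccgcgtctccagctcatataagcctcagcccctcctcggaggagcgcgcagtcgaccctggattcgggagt
Nmu: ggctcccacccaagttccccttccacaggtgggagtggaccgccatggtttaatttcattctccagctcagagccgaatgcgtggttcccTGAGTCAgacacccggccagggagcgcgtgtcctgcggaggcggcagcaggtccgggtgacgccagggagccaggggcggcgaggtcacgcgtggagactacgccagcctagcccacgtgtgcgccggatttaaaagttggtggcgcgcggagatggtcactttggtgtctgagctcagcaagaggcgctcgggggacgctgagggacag
Nts: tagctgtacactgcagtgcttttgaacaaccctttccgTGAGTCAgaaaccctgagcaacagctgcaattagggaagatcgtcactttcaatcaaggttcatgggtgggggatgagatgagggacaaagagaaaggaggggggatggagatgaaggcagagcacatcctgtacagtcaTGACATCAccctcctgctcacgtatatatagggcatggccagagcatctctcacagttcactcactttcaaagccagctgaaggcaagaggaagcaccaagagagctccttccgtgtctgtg
Vgf: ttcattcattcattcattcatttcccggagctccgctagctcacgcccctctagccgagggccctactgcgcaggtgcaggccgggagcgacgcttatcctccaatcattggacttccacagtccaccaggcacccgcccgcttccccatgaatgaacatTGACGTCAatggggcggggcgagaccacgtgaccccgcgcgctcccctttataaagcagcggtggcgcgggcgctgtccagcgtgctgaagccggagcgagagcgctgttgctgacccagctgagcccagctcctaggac
Scg2: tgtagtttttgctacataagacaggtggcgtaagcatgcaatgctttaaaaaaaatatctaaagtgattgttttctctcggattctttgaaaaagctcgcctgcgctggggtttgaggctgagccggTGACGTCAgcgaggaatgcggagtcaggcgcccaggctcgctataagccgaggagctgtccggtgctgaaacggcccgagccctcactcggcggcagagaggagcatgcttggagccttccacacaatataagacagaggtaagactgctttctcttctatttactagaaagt
The match began 35 bases before the start in Trh, 90 in Vgf and 123 in Scg2. Nts held a cyclic AMP form at 72 and an AP-1 form at 212 bases before the start, which do not overlap, and Nmu held an AP-1 form at 160. Npy held neither pattern in its window. A match of letters is a description of the window and does not show that a factor binds there. The part of these elements in the striatal values was not tested.

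The array medians ran from 7.90 to 7.98 in striatum and from 8.21 to 8.32 in nigra, so levels are compared within a tissue. Each punch carried the markers of its tissue: 7 direct-pathway markers averaged 9.32 to 9.86 over the striatal arrays, and 8 dopamine-neuron markers averaged 8.96 to 11.67 over the nigral arrays. Array 3 of the lesioned vehicle nigra stood apart, with the cortical transporter gene Slc17a7 at 9.76 against 6.38 and 6.26 in the other arrays of its group. Array 1 of that group stood apart in striatal markers, with Penk at 10.08 against 8.29 and 8.24, Adora2a at 8.80 against 7.64 and 7.27 and Drd1 at 8.0 against 6.68 and 6.29. The nigral calls against lesioned vehicle rats are therefore also given without each of these arrays. In the nigra, Th, which encodes tyrosine hydroxylase and marks dopamine neurons, stood at 10.86, 11.29 and 12.22 in dyskinetic rats, 12.45, 12.36 and 12 in non-dyskinetic rats, 11.30, 10.91 and 10.21 in lesioned vehicle rats and 13.39, 13.50 and 13.38 in intact rats. The levodopa-treated lesioned groups thus overlapped in Th through dyskinetic array 3 alone, and dyskinetic arrays 1 and 2 lay below all non-dyskinetic ones. Between these groups the median difference over the 8 markers was -0.57. The marker gene Ret was separate, at 9.68 to 9.86 in dyskinetic and 10.38 to 10.44 in non-dyskinetic nigra. All intact rats lay above every lesioned rat in Th. In bulk punches, fewer cells of a type and less RNA per cell cannot be told apart.

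The first comparison set dyskinetic against non-dyskinetic striatum, which shared toxin and drug and not the movements. The part of lesion extent in this comparison was not tested. In 7 of the 8 genes the lowest dyskinetic array exceeded the highest non-dyskinetic one, and Npy alone overlapped. Among all 12436 genes tested 8.66% showed such a rise without overlap, and since the listed genes were chosen on this comparison nothing is read from their count. Their median difference was 1.19, against -0.03 over all genes tested. The differences ran in size from Trh, Nmu and Cck through Scg2, Nts, Vgf and Pcsk1 to Npy.

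Trh stood at 11.63, 11.45 and 9.75 in dyskinetic striatum, 7.86, 7.86 and 7.84 in non-dyskinetic, 7.76, 7.67 and 7.64 in lesioned vehicle and 7.77, 7.87 and 7.89 in intact striatum. The dyskinetic mean exceeded the non-dyskinetic one by 3.09 ± 0.32 (SE of the fit), an 8.50-fold difference, and the other groups differed among themselves by at most 0.16 in mean. The standard error pools the spread of all groups, whereas the SD was 1.04 in dyskinetic and 0.01 in non-dyskinetic rats, and the difference was 3.69 without the low array 3 and at least 2.74 without any other.

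Nmu, whose peptide is known from feeding and stress circuits, stood at 10.01, 9.58 and 8.96 in dyskinetic striatum, 7.44, 7.36 and 6.51 in non-dyskinetic, 8.62, 8.55 and 7.68 in lesioned vehicle and 6.57, 6.38 and 6.63 in intact striatum. The dyskinetic arrays lay highest and the lesioned vehicle arrays next, and only the non-dyskinetic and intact arrays overlapped. The difference between dyskinetic and non-dyskinetic rats was 2.41 ± 0.28, or 5.32-fold.

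Cck stood at 10.83, 11.17 and 10.93 in dyskinetic striatum, 9.87, 9.27 and 9.00 in non-dyskinetic, 9.50, 9.78 and 9.31 in lesioned vehicle and 8.87, 9.08 and 8.97 in intact striatum. All dyskinetic arrays lay above the 9 others, and the non-dyskinetic group overlapped both remaining groups. The difference between dyskinetic and non-dyskinetic rats was 1.60 ± 0.17, or 3.02-fold.

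Nts stood at 9.22, 8.69 and 8.83 in dyskinetic striatum, 7.50, 8.32 and 7.50 in non-dyskinetic, 8.26, 8.47 and 8.06 in lesioned vehicle and 6.86, 6.10 and 6.66 in intact striatum. Every lesioned rat lay above every intact rat, the dyskinetic arrays lay above the rest, and the non-dyskinetic and lesioned vehicle arrays overlapped. The difference between dyskinetic and non-dyskinetic rats was 1.14 ± 0.22, or 2.20-fold.

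Npy differed from the other precursors, with 10.44, 10.45 and 10.31 in dyskinetic striatum, 10.47, 10.14 and 10.16 in non-dyskinetic, 10.14, 10.20 and 10.28 in lesioned vehicle and 10.28, 10.38 and 10.41 in intact striatum. No neighbouring groups in the order of means were separate, and the difference between dyskinetic and non-dyskinetic rats was 0.14 ± 0.09, with a 95% interval from -0.05 to 0.33. The 7 markers of striatal interneurons averaged 8.53 to 8.67 in dyskinetic, 8.60 to 8.79 in non-dyskinetic, 8.68 to 8.84 in lesioned vehicle and 8.81 in intact arrays, and the part of cell makeup in these values was not tested.

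Of the granins, Scg2 stood at 12.21, 12.16 and 11.79 in dyskinetic striatum, 11.03, 10.72 and 10.67 in non-dyskinetic, 10.93, 10.85 and 10.81 in lesioned vehicle and 10.57, 10.58 and 10.70 in intact striatum. All dyskinetic arrays lay above the 9 others, and the difference to non-dyskinetic rats was 1.24 ± 0.11. Vgf, which growth factors and activity are known to induce, stood at 10.33, 10.81 and 10.45 in dyskinetic striatum, 9.62, 9.80 and 9.36 in non-dyskinetic, 9.87, 9.91 and 10.21 in lesioned vehicle and 9.77, 9.95 and 9.79 in intact striatum. Its difference between dyskinetic and non-dyskinetic rats was 0.94 ± 0.13, and here the non-dyskinetic mean was the lowest of the 4 groups.

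Pcsk1 stood at 9.41, 9.27 and 9.20 in dyskinetic striatum, 8.75, 8.48 and 8.42 in non-dyskinetic, 8.57, 8.57 and 8.56 in lesioned vehicle and 7.81, 7.67 and 8.0 in intact striatum. These are 3 separate levels, the dyskinetic highest, the other lesioned groups together in the middle and the intact lowest. The difference between dyskinetic and non-dyskinetic rats was 0.74 ± 0.10.

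**Figure D1:**
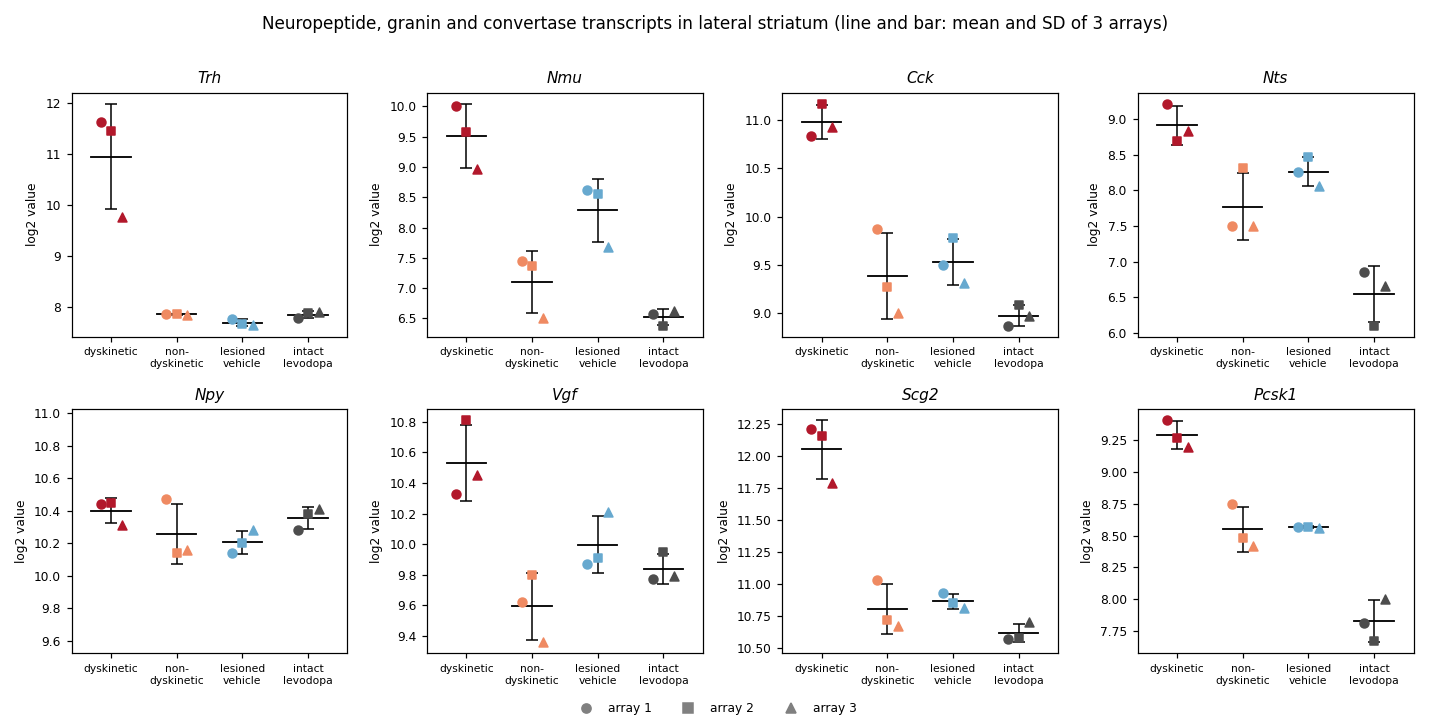
Log2 value of each of the 8 genes on the 12 striatal arrays, one panel per gene, with the 4 groups along the horizontal axis; points are arrays, and lines and bars are the mean and SD of 3 arrays. Trh is near 7.8 outside the dyskinetic group, Nmu and Nts are lowest in intact rats with lesioned vehicle rats above non-dyskinetic ones in mean, and neighbouring Npy groups in the order of means overlap.

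Within the dyskinetic group the rats were not alike. Array 3 was the lowest of the 3 for Trh, Nmu, Npy, Scg2 and Pcsk1 and the middle one for Cck, Nts and Vgf. The same rat gave array 3 of the dyskinetic nigra, where it had the highest Th of its group (12.22) and Slc6a3, the dopamine transporter gene, at 11.62 against 10.03 and 10.27. This is a single animal, and the relation between its nigral and striatal values was not tested.

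Between dyskinetic and non-dyskinetic striatum all 3 probe sets of Trh (2.65 to 3.31), 11 of Nmu (1.61 to 2.94), 4 of Cck (0.67 to 2.07), 4 of Nts (0.79 to 1.36), 4 of Vgf (0.75 to 1.15) and 3 of Scg2 (1.12 to 1.33) had no overlap between groups. The 16 probe sets of Pcsk1 were all positive, from 0.28 to 1.10, and 13 had no overlap. The 5 of Npy ran from 0.09 to 0.19 and all overlapped. For Cck, 1 probe set (0.67) lay well below the other 3. Elsewhere probe sets of a gene differed in sign, and the following are examples. Against lesioned vehicle striatum 15 of 16 for Pcsk1 (from -0.39 to 1.21) and 4 of 5 for Npy (from -0.09 to 0.36) were positive. Between non-dyskinetic and intact striatum 15 of 16 for Pcsk1 were positive, from -0.53 to 1.66, and 12 had no overlap. Between dyskinetic and non-dyskinetic nigra 13 of 16 for Pcsk1 were positive, from -1.08 to 0.70. So were 4 of 5 for Npy (-0.11 to 0.41) and 2 of 3 for Trh (-0.31 to 0.21).

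**Figure D2:**
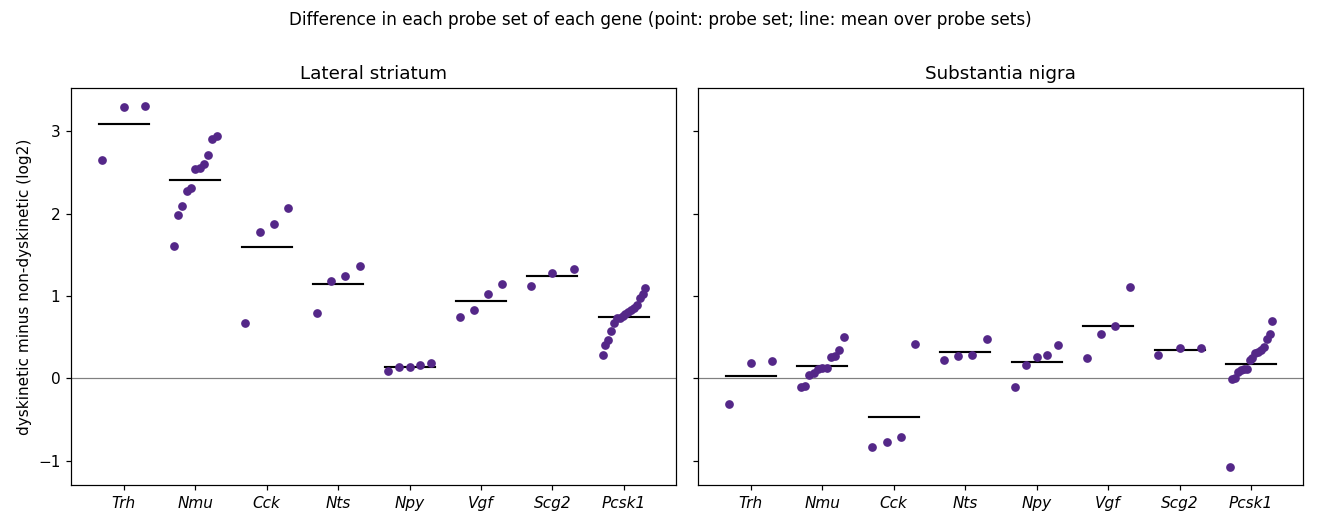
Difference between dyskinetic and non-dyskinetic rats on the log2 scale (vertical axis) for each probe set (point) of the 8 genes (horizontal axis), with the mean over probe sets as a line, in lateral striatum on the left and substantia nigra on the right. In striatum every point lies above 0, from 0.09 for Npy to 3.31 for Trh, and in nigra 3 of 4 Cck probe sets lie below 0.

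Set against lesioned vehicle striatum, which lacks the drug, all 8 genes had their 3 dyskinetic arrays above, as had 10.2% of all genes tested, and again nothing is read from the count. The mean differences were 3.25 for Trh, 1.45 for Cck, 1.23 for Nmu, 1.19 for Scg2, 0.72 for Pcsk1, 0.65 for Nts, 0.53 for Vgf and 0.20 for Npy. For Nmu and Nts the distance to lesioned vehicle rats was thus 1.23 and 0.65, against 2.41 and 1.14 to non-dyskinetic rats. Both comparisons share the dyskinetic arrays, and those that follow share the non-dyskinetic ones.

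Non-dyskinetic against lesioned vehicle striatum sets levodopa without the movements against no levodopa, both after the toxin. Nmu was lower in the non-dyskinetic rats by a mean difference of -1.18 ± 0.28 and Vgf by -0.40 ± 0.13, both without overlap, and Trh was higher without overlap by 0.16. That is 2 genes below and 1 above, against 3.54% of all genes below and 6.51% above. Nts (-0.49), Cck (-0.15), Scg2 (-0.05), Pcsk1 (-0.02) and Npy (0.05) overlapped. Relative to rats without the drug, Nmu was therefore higher in the dyskinetic group and lower in the non-dyskinetic group.

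Non-dyskinetic against intact striatum sets the toxin against no toxin with levodopa and without the movements in both. Nts (1.23 ± 0.22) and Pcsk1 (0.72 ± 0.10) were higher in the lesioned rats without overlap, 2 of 8 genes against 7.70% of all genes. Nmu (0.58), Cck (0.41), Scg2 (0.19), Trh (0.01), Npy (-0.10) and Vgf (-0.24) overlapped. Lesioned vehicle rats, which differ from intact rats in both toxin and drug, stood above intact rats by 1.76 for Nmu, 1.72 for Nts, 0.74 for Pcsk1, 0.56 for Cck and 0.24 for Scg2 without overlap and below them by a difference of -0.15 for Trh, and the toxin and the drug cannot be told apart there. For lesioned vehicle against intact striatum the share of all genes without overlap was not counted, and nothing is read from the number of genes. Over all 4 groups, Trh was thus high in the dyskinetic rats alone, whereas Nts and Pcsk1 were above intact levels in all 3 lesioned groups.

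Pattern likeness was measured as the root-mean-square distance over the 12 striatal arrays between genes centred on their own striatal mean. Only genes tested in striatum were ranked, and those with symbols of LOC or RGD and a number were left out. Nearest to Trh, whose own spread around its mean was 1.43, were Cdkn1a, the cell-cycle inhibitor p21 (0.37), the nuclear receptor gene Nr4a2 (0.43), the vitamin D receptor gene Vdr (0.48), the orphan receptor gene Gpr3 (0.53) and the somatostatin receptor gene Sstr2 (0.53). Nearest to Nmu (own spread 1.21) were the activin subunit gene Inhba (0.48), Nts (0.56), Cck (0.61), the matrix protease gene Mmp9 (0.61) and Serinc2 (0.63). Nearest to Cck (0.79) were the cyclooxygenase gene Ptgs2 (0.17), the small GTPase gene Rem2 (0.17), the kinase gene Plk3 (0.21), Scg2 (0.28) and the phosphatase gene Dusp2 (0.29). Nearest to Nts (0.92) were Tac3, the neurokinin B precursor (0.44), Mmp9 (0.45), the troponin gene Tnnt1 (0.47), Pcsk1 (0.48) and the potassium channel subunit gene Kcnab3 (0.49). These genes share the arrays and the group structure, and likeness is given as a description.

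The other genes of the peptide pathway were read from lists written with earlier results of these data known. Nothing is therefore read from the number of genes called in a list. A gene passed where its p, adjusted over all 12436 genes tested, was under 0.05, and each call was repeated under alternatives that changed 1 setting or left out 1 array. Of 35 measured other neuropeptide precursors, 22 were above the filter in striatum, where 3 rose in dyskinetic against non-dyskinetic rats and none fell, with a median of 0.10 against -0.03 over all genes, of which 3.06% rose. Pdyn, the dynorphin precursor of direct-pathway neurons, stood at 11.89, 11.80 and 11.36 in dyskinetic striatum, against 10.34, 9.71 and 10.04 in non-dyskinetic striatum, a rise of 1.66 ± 0.17 (limma, adjusted p = 5.1e-05). Tac3 stood at 10.57, 10.80 and 10.53 in dyskinetic striatum, against 9.56, 9.71 and 9.22 in non-dyskinetic striatum, a rise of 1.14 ± 0.12 (limma, adjusted p = 6.6e-05). Prok2, the precursor of prokineticin 2, rose by 0.57 ± 0.13 (limma, adjusted p = 0.020), and its call was lost in 3 of 13 alternatives. None of these groups overlapped. The enkephalin precursor Penk (0.08), the substance P precursor Tac1 (0.34) and the somatostatin precursor Sst (0.14) did not pass. Against lesioned vehicle striatum Pdyn (2.14 ± 0.17), Tac1 (0.66 ± 0.11) and Tac3 (0.59 ± 0.12) rose, 3 of 22 with 3.63% of all genes rising, at limma adjusted p of 4.0e-06, 0.0020 and 0.0089.

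Of 18 prohormone processing and dense-core granule genes tested in striatum, 2 rose in dyskinetic against non-dyskinetic rats and none fell, with a median of 0.03, where 3.06% of all genes rose and 2.20% fell. Furin, a convertase of the constitutive secretory pathway, stood at 9.00, 9.04 and 8.76 in dyskinetic striatum, against 8.40, 8.59 and 8.36 in non-dyskinetic striatum, a rise of 0.48 ± 0.09 (limma, adjusted p = 0.0039). Ptprn, the granule membrane protein IA-2, stood at 11.96, 11.93 and 11.81 in dyskinetic striatum, against 11.46, 11.48 and 11.41 in non-dyskinetic striatum, a rise of 0.45 ± 0.07 (limma, adjusted p = 0.0014). Both groups were separate in each gene, and in all 13 alternatives each passed. The second neuroendocrine convertase Pcsk2 (0.07), the amidating enzyme Pam (0.20) and the granins Chga (0.07) and Chgb (0.14) did not pass. Furin also rose against lesioned vehicle striatum (0.51 ± 0.09, limma adjusted p = 0.0023), the single call of the 18, where 3.63% of all genes rose.

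Among 6 peptide-degrading enzymes tested, Mme, which encodes the membrane enzyme neprilysin, fell and no other passed, with a median of -0.07 and 2.20% of all genes falling. It stood at 8.98, 9.22 and 9.44 in dyskinetic striatum, against 9.53, 10.06 and 9.78 in non-dyskinetic striatum, a difference of -0.58 ± 0.12 (limma, adjusted p = 0.013). The groups did not overlap, and the call was lost in 5 of 13 alternatives. Mme was also lower than in lesioned vehicle striatum, by -0.50 ± 0.12 (limma, adjusted p = 0.029), likewise lost in 5 of 13, where 1.55% of all genes fell. Of 6 receptor genes of these peptides tested, the neuropeptide Y receptor gene Npy1r alone passed between dyskinetic and non-dyskinetic striatum (0.34 ± 0.09, limma adjusted p = 0.05), and it was lost in all 12 alternatives that gave a value. Sort1, the sorting receptor that binds neurotensin, differed by -0.07 and the cholecystokinin receptor gene Cckbr by -0.10, neither past the threshold. In non-dyskinetic against lesioned vehicle or intact striatum no gene of these 4 lists passed, where 0.0322% and 0.0482% of all genes did.

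Pdyn alone of the 7 direct-pathway markers passed between dyskinetic and non-dyskinetic striatum, and the list mean was 9.76 to 9.83 in dyskinetic, 9.52 to 9.61 in non-dyskinetic, 9.32 to 9.46 in lesioned vehicle and 9.81 to 9.86 in intact arrays. No indirect-pathway, interneuron, cortical, astrocyte, microglial, oligodendrocyte or endothelial marker passed in that comparison. Th rose in dyskinetic against non-dyskinetic striatum (1.15 ± 0.17, limma adjusted p = 0.00092), 1 of 6 dopamine-neuron markers tested there. Kl, 1 of 3 choroid plexus markers tested, was higher as well (0.40 ± 0.09), with the 5-gene list mean at 6.10 to 6.30 in dyskinetic and 6.00 to 6.19 in non-dyskinetic arrays. Kl stood at 6.69, 6.52 and 6.31 in dyskinetic arrays and at 6.06 to 6.23 in all others, near the filter limit of 6.21. Kl entered the test through its dyskinetic values, so nothing is read from its calls here or against lesioned vehicle rats. Against lesioned vehicle striatum 4 of the 7 direct-pathway markers rose, where 3.63% of all genes did. These were the dopamine receptor gene Drd1 (0.35 ± 0.09) and Slc35d3 (0.28 ± 0.07) beside Pdyn and Tac1. The direct-pathway markers Isl1, Chrm4 and Eya1 did not pass, and all their dyskinetic arrays lay below the lesioned vehicle ones. Th (0.74 ± 0.17) and Kl (0.34 ± 0.09) rose there too, and the cholinergic gene Chat (-0.52 ± 0.11) and the myelin genes Mog (-0.27 ± 0.07) and Cldn11 (-0.33 ± 0.09) fell. Their limma adjusted p ran from 0.0077 to 0.044, leaving Pdyn and Tac1 aside. Of 13 alternatives each, Drd1 and Cldn11 were lost in 6, Slc35d3 in 8, Mog in 9 and Chat in 1. Of the alternatives that gave a value, Th was lost in 6 of 12 and Kl in 6 of 10 (Kl in 2 of 10 against non-dyskinetic rats). The part of any of these in the peptide values was not tested.

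In the nigra 7 of the 8 genes lay above the filter on low values, and Nmu, with a mean near 5.6 in each group below the limit of 6.44, was not tested. None of the 7 passed between dyskinetic and non-dyskinetic nigra, where 0.241% of all genes did. Without overlap, Scg2 was higher and Cck lower in the dyskinetic rats, 1 gene each way, against 7.94% and 13.3% of all genes. The median of the 8 was 0.19, against -0.02 over all genes tested.

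Cck stood at 10.23, 10.26 and 10.34 in dyskinetic nigra, 10.64, 10.86 and 10.74 in non-dyskinetic, 10.18, 9.89 and 9.54 in lesioned vehicle and 11.21, 11.82 and 11.47 in intact nigra. The 4 groups were separate, in the order intact, non-dyskinetic, dyskinetic and lesioned vehicle, an order unlike the striatal one, where dyskinetic rats were highest and intact rats lowest. Cck fell in non-dyskinetic against intact nigra by 0.75 ± 0.16 on the log2 scale (limma, adjusted p = 0.015). The difference between dyskinetic and non-dyskinetic nigra was -0.47 ± 0.16 (limma, adjusted p = 0.20), that between dyskinetic and lesioned vehicle nigra 0.40 (adjusted p = 0.17), and that between non-dyskinetic and lesioned vehicle nigra 0.87 (adjusted p = 0.12). Of its 4 probe sets, 3 were lower in dyskinetic than in non-dyskinetic nigra (-0.83 to -0.71) and 1 was higher (0.42), all without overlap, and against lesioned vehicle nigra the non-dyskinetic probe sets ran from -0.34 to 1.37. Without array 1 of the lesioned vehicle rats the difference between non-dyskinetic and lesioned vehicle nigra was 1.03 (adjusted p = 0.049) and without array 3 it was 0.71 (adjusted p = 0.24). The difference between dyskinetic and lesioned vehicle nigra was 0.56 (adjusted p = 0.13) without array 1 and 0.24 (adjusted p = 0.48) without array 3. The call against intact nigra was lost without array 3 of the non-dyskinetic rats (adjusted p = 0.062) and without array 2 of the intact rats (adjusted p = 0.080). The dopamine-neuron markers moved beside it: their list mean was 9.20 to 10.07 in dyskinetic, 9.93 to 10.21 in non-dyskinetic, 8.96 to 9.32 in lesioned vehicle and 11.40 to 11.67 in intact arrays. In non-dyskinetic against intact nigra 7 of 8 fell, where 3.97% of all genes did. The call of Th was lost in 10 of 14 alternatives (limma, adjusted p up to 0.19), and the others that fell passed in all 14. The part of these markers in the Cck values was not tested.

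Scg2 stood at 11.46, 11.68 and 11.52 in dyskinetic nigra, 11.28, 11.30 and 11.07 in non-dyskinetic, 11.21, 11.22 and 11.21 in lesioned vehicle and 11.53, 11.62 and 11.62 in intact nigra. Dyskinetic and intact rats overlapped at the higher level, and non-dyskinetic and lesioned vehicle rats at the lower one. It fell in non-dyskinetic against intact nigra by 0.37 ± 0.08 (limma, adjusted p = 0.013), lost in 3 of 14 alternatives. In dyskinetic against lesioned vehicle nigra it rose by 0.34 ± 0.08 (limma, adjusted p = 0.045), 1 of 7 genes where 2.22% of all genes passed, and 2 genes (Scg2 and Cck) were higher without overlap, against 10.2% of all genes. This call was lost in 9 of 13 alternatives, among them those without array 1 (0.34, limma adjusted p = 0.12) and without array 3 (0.34, adjusted p = 0.10) of the lesioned vehicle rats. Against non-dyskinetic nigra the difference was also 0.34, with an adjusted p of 0.11.

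Pcsk1 stood at 7.79, 8.43 and 7.93 in dyskinetic nigra, 7.93, 7.95 and 7.74 in non-dyskinetic, 7.64, 7.67 and 8.11 in lesioned vehicle and 8.68, 8.66 and 8.35 in intact nigra. The non-dyskinetic and lesioned vehicle arrays lay below all intact arrays, and 1 dyskinetic array reached the intact range. It fell in non-dyskinetic against intact nigra by 0.69 ± 0.16 (limma, adjusted p = 0.029), with 14 of its 16 probe sets separate, but the call was lost in 6 of 13 alternatives, with an adjusted p of up to 0.14. The calls of Cck, Scg2 and Pcsk1 make 3 of 7 genes, all lower, where 3.97% of all genes fell and 0.724% rose. Without overlap 3 of the 8 genes were lower and 2, Npy and Vgf, higher, against 14.3% and 9.54% of all genes.

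Vgf stood at 10.22, 9.50 and 10.06 in dyskinetic nigra, 9.11, 9.23 and 9.55 in non-dyskinetic, 9.42, 10.00 and 9.36 in lesioned vehicle and 8.52, 8.80 and 8.88 in intact nigra. Every lesioned rat lay above every intact rat, whereas in the striatum the intact and non-dyskinetic arrays overlapped. The difference between non-dyskinetic and intact nigra was 0.56 (limma, adjusted p = 0.15) and that between dyskinetic and non-dyskinetic nigra 0.63 (adjusted p = 0.19), neither past the threshold.

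Npy stood at 8.28, 8.43 and 8.51 in dyskinetic nigra, 8.18, 8.12 and 8.33 in non-dyskinetic, 8.66, 8.39 and 9.54 in lesioned vehicle and 7.93, 7.81 and 7.79 in intact nigra. All intact rats lay below the lesioned ones, and the value of 9.54 belongs to the array high in Slc17a7. The difference of 0.37 between non-dyskinetic and intact nigra had an adjusted p of 0.40 with all arrays and of 0.030 with that array left out of the fit, a choice made after it was seen (limma). Between dyskinetic and lesioned vehicle nigra Npy differed by -0.45 with all arrays and by -0.12 without that one (limma, adjusted p = 0.24 and 0.63). Between non-dyskinetic and lesioned vehicle nigra it differed by -0.66 with all arrays and by -0.32 without that one (adjusted p = 0.51 and 0.62).

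Trh had no group apart in the nigra, with 6.66, 6.54 and 6.50 in dyskinetic, 6.59, 6.36 and 6.65 in non-dyskinetic, 6.74, 6.54 and 6.71 in lesioned vehicle and 6.39, 6.65 and 6.53 in intact rats. The 95% interval of the difference between dyskinetic and non-dyskinetic nigra ran from -0.17 to 0.23. Nts was also overlapping, with 6.69, 7.11 and 6.90 in dyskinetic, 6.98, 7.02 and 5.76 in non-dyskinetic, 6.74, 6.46 and 6.07 in lesioned vehicle and 6.92, 6.77 and 6.67 in intact rats, and its single low array set an SD of 0.72 in the non-dyskinetic group. That array was also low in Slc17a6, the transporter gene that marks midbrain glutamatergic neurons, at 6.16 against 8.59 and 8.65, and the mean of 3 such markers was 6.24 there against 7.40 and 7.42. The part of these cells in the Nts values was not tested. In non-dyskinetic against lesioned vehicle nigra none of the 7 genes passed, and 0.0% of all genes did in limma, while 999 had an unadjusted p under 0.05. Cck was higher and Npy lower there without overlap, against 5.49% and 5.36% of all genes.

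**Figure D3:**
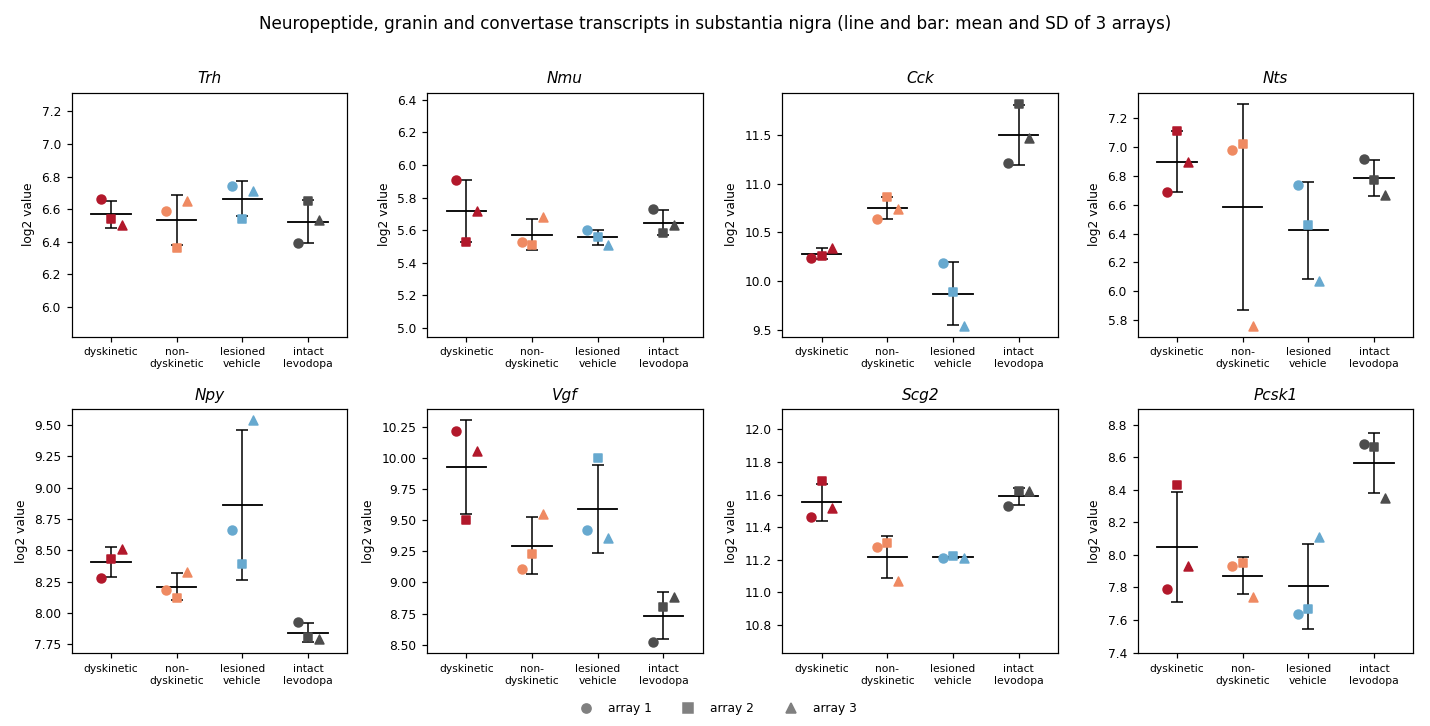
Log2 value of each of the 8 genes on the 12 nigral arrays, one panel per gene, with the 4 groups along the horizontal axis; points are arrays, and lines and bars are the mean and SD of 3 arrays. Cck and Pcsk1 are highest in intact rats, Vgf and Npy lowest in intact rats, and the groups of Trh, Nmu and Nts overlap.

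In the nigra all calls of the receptor and granule lists came in non-dyskinetic against intact rats among the 4 comparisons tested; dyskinetic and lesioned vehicle rats were not tested against intact rats. Ntsr1 stood at 9.73, 9.74 and 9.32 in non-dyskinetic nigra, against 11.22, 11.72 and 11.46 in intact nigra, and fell by 1.87 ± 0.24 (limma, adjusted p = 0.00065). In dyskinetic nigra it stood at 8.26, 8.86 and 9.44 and in lesioned vehicle nigra at 8.72, 8.42 and 8.24, so all lesioned rats lay below the intact ones. Of 7 receptor genes tested, Npy1r fell as well (by 0.46 ± 0.12, limma adjusted p = 0.045, lost in 9 of 13 alternatives). C3ar1, a complement receptor reported to bind a VGF peptide, rose by 0.50 ± 0.10 (limma, adjusted p = 0.011), lost in 2 of 14 alternatives with an adjusted p of up to 0.068. The 6 microglial markers had a median difference of 0.26 there, and none passed. Their list mean was 9.48 to 9.95 in non-dyskinetic and 9.30 to 9.50 in intact arrays, and their part in the C3ar1 values was not tested. The median of the 7 receptor genes was 0.10, against 0.00 over all genes tested.

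Of 18 granule and processing genes tested in nigra 5 fell in non-dyskinetic against intact rats and none rose, with a median of -0.11, where 3.97% of all genes fell and 0.724% rose. Cadps2, a priming factor of dense-core granule release, stood at 9.13, 9.22 and 8.93 in non-dyskinetic nigra, against 10.68, 10.88 and 10.55 in intact nigra, and fell by 1.61 ± 0.15 (limma, adjusted p = 0.00013). The granule-associated synaptotagmin gene Syt4 fell by 0.98 ± 0.10, Chgb by 0.57 ± 0.06 and Ptprn by 0.48 ± 0.08, at limma adjusted p of 0.00019, 0.00034 and 0.0032. Pcsk2 fell by 0.39 ± 0.08 (limma, adjusted p = 0.018). Groups were separate in each, and Cadps2, Syt4, Chgb and Ptprn passed in all 14 alternatives whereas Pcsk2 was lost in 3. The dopamine-neuron markers fell in the same comparison. Slc18a2, the vesicular monoamine transporter gene, fell by 1.97 ± 0.31 and Aldh1a1 fell by 1.85 ± 0.17. Drd2, which dopamine neurons also express, fell by 1.32 ± 0.17. Their part in the granule values was not tested. Between dyskinetic and non-dyskinetic nigra no gene of the receptor, granule, degrading or precursor lists passed, Cadps2 coming nearest at -0.78 ± 0.15 (limma, adjusted p = 0.073), and the dopamine-neuron marker that passed was Ret, the receptor of the GDNF family, at -0.62 ± 0.09 (limma, adjusted p = 0.010), lost in 3 of 14 alternatives with an adjusted p of up to 0.071. Between dyskinetic and lesioned vehicle nigra the adrenomedullin precursor Adm was the single call of the 4 lists, at -0.52 ± 0.12 (limma, adjusted p = 0.048), lost in 9 of 12 alternatives, among them those without lesioned vehicle array 1 (-0.60, adjusted p = 0.071) and without array 3 (-0.36, adjusted p = 0.11). Of the dopamine-neuron markers, Aldh1a1 was higher there (0.925, limma adjusted p = 0.024) and Ret lower (-0.445, limma adjusted p = 0.030). These calls were lost in 3 and 6 of 13 alternatives. Without lesioned vehicle array 1 the limma adjusted p was 0.078 for Aldh1a1 and 0.092 for Ret. Without array 3 it was 0.038 and 0.064.

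**Figure D4:**
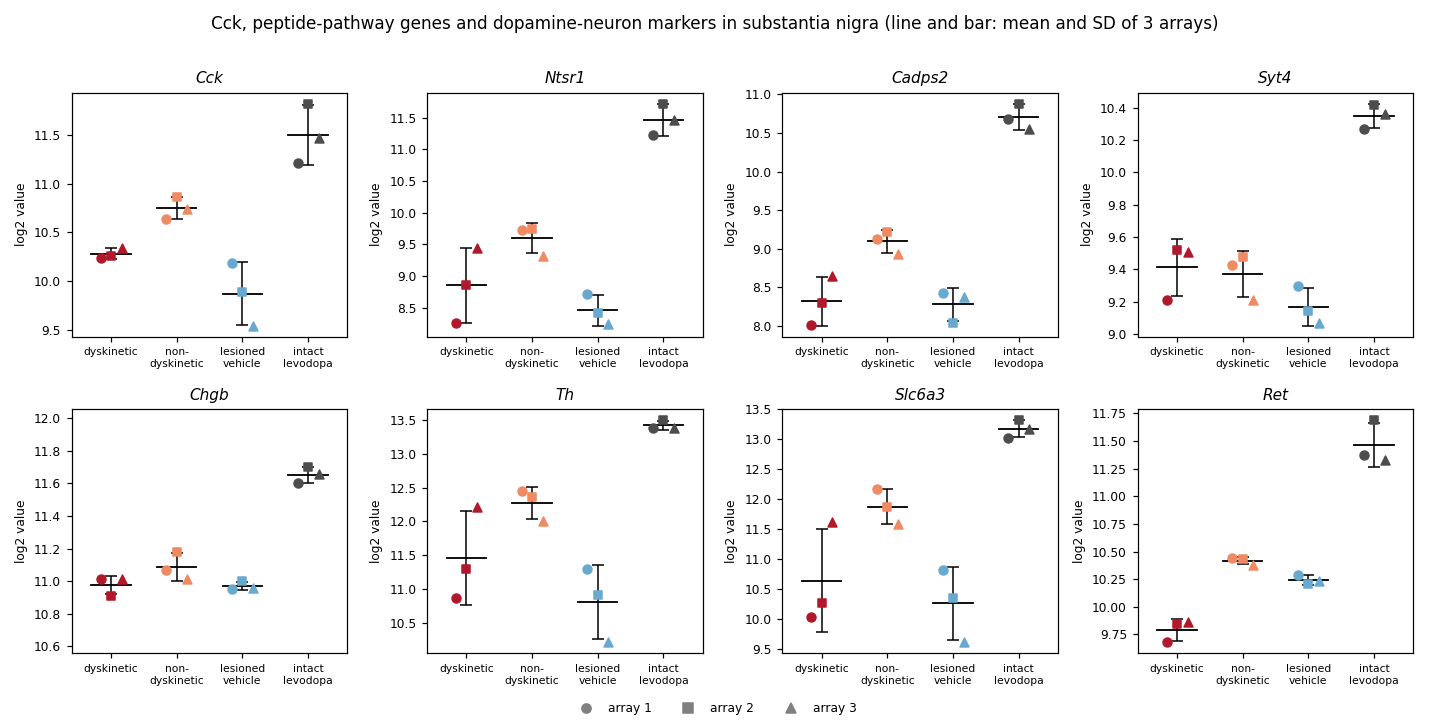
Log2 values of Cck, of 4 receptor and granule genes (Ntsr1, Cadps2, Syt4, Chgb) and of 3 dopamine-neuron markers (Th, Slc6a3, Ret) on the 12 nigral arrays, with groups along the horizontal axis, points for arrays, and lines and bars for the mean and SD of 3 arrays. In every panel the intact arrays are the highest, and Ret is lowest in dyskinetic rats (9.68 to 9.86).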

How the data were processed

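Total RNA of 24 punches with an integrity number of at least 7 was biotin-labelled and hybridised to Affymetrix arrays, per the labels. The authors deposited log2 values, made with RMA in oligo 1.34 under R 3.2.3 per the submitters' processing notes. Background correction and quantile normalisation in RMA can compress low values, and whether both tissues were normalised together is not given in the sources used here.

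From these, 172924 probe sets that name 1 gene in the array's annotation of 2010 were averaged per gene, with symbols updated by the RefSeq table of GRCr8. The lowest 25% of genes by tissue mean were left out, and 12436 genes per tissue went into limma (version 3.58.1, run in R 4.3.3; lmFit and eBayes, 4 group means over 12 arrays, Benjamini-Hochberg at 0.05). Tables and figures used Python 3.11.15, pandas 2.3.3, numpy 2.4.6 and matplotlib 3.10.9. The number of arrays limits the precision. The script was tested on simulated data. Alternatives were the median over probe sets, no filter or a filter at 50%, 2-group fits, array weights, trended robust variances, a replicate block, and each array left out in turn; the array high in cortical markers was left out of further comparisons after it was seen.

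Genes and lists were chosen with earlier results of these data known. Named were all 8 genes, up to 4 genes per list and comparison by adjusted p among those past the threshold (members that did not pass are named as examples after their values were seen, and so is Pcsk2 in nigra, the fifth called), and the 5 genes nearest in pattern to Trh, Nmu, Cck and Nts. Of the 14 rats 10 gave both tissues.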

Additional observations from a re-analysis of the deposited data

Results flagged for a closer look

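Cck differed in opposite directions in the tissues between dyskinetic and non-dyskinetic rats. All 3 dyskinetic arrays were above all 3 non-dyskinetic ones in striatum (a difference of 1.60) and below them in nigra (-0.47). Pcsk1 did so between non-dyskinetic and intact rats, with a difference of 0.72 in striatum and of -0.69 in nigra. Neither difference between the tissues was tested. In nigra 3 of the 4 Cck probe sets were lower in dyskinetic than in non-dyskinetic rats (-0.83 to -0.71) and 1 was higher (0.42).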

How the results depend on the processing

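Striatal differences of the 8 genes moved by less than the spread between arrays in 413 of 416 alternatives, but most alternatives could not exceed it. Filters, 2-group fits, trended variances and the replicate block leave the group means as they are. Leaving out 1 of 3 arrays shifts a mean by less than that spread. Only array weights and the median over probe sets could exceed it, so nothing is read from the count. The exceptions came with the median over probe sets. They were Scg2 (1.37) and Pcsk1 (0.84) in dyskinetic against lesioned vehicle rats and Pcsk1 (0.53) in non-dyskinetic against intact rats. In nigra 313 of 362 kept direction and call, 20 lost a call, 8 gained one and 21 changed sign. In non-dyskinetic against lesioned vehicle nigra, Nts was -0.302 and Scg2 -0.035 with array weights, and Scg2 was -0.038 and Pcsk1 -0.062 with the median over probe sets. With arrays left out in turn, nigral differences ran from -0.055 to 0.088 (Trh), -0.101 to 0.531 (Nts) and -0.011 to 0.308 (Pcsk1) between dyskinetic and non-dyskinetic rats. They ran from -0.052 to 0.58 (Nts), -0.039 to 0.073 (Scg2) and -0.02 to 0.217 (Pcsk1) between non-dyskinetic and lesioned vehicle rats, and from -0.054 to 0.098 (Trh) and -0.417 to 0.214 (Nts) between non-dyskinetic and intact rats. Calls gained in limma were, with 2-group fits, Cck between dyskinetic and non-dyskinetic nigra (adjusted p = 0.044) and Vgf (0.038) and Npy (0.033) between non-dyskinetic and intact nigra. With array weights they were Scg2 between dyskinetic and non-dyskinetic (0.041) and Vgf between dyskinetic and lesioned vehicle nigra (0.019). With a lesioned vehicle array left out they were Npy in dyskinetic against lesioned vehicle nigra (0.045, array 2), Cck in non-dyskinetic against lesioned vehicle nigra (0.049, array 1) and Npy in non-dyskinetic against intact nigra (0.030, array 3).

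Counts of genes past the limma threshold moved as well. For dyskinetic against non-dyskinetic striatum (654 genes) the count was 352 with the median over probe sets, 386 with 2-group fits and 293 to 945 with arrays left out. For dyskinetic against lesioned vehicle striatum (644) it was 381 with the median, 1152 with array weights and 381 to 636 with arrays left out. For non-dyskinetic against lesioned vehicle striatum (4) it was 1 with the median and with 2-group fits, 2 with the filter at 50%, 9 with the replicate block and 1 to 12 with arrays left out. For non-dyskinetic against intact striatum (6) it was 0 with the median and with 2-group fits, 1 without a filter and 0 to 16 with arrays left out.

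In nigra, dyskinetic against non-dyskinetic (30) gave 16 with the median, 17 with the filter at 50%, 104 with array weights and 0 to 50 with arrays left out, the 0 without dyskinetic array 1. Dyskinetic against lesioned vehicle (276) gave 87 with the median, 174 without a filter, 30 with 2-group fits, 3393 with array weights, 143 with the replicate block and 34 to 986 with arrays left out, the 986 without vehicle array 2. Non-dyskinetic against lesioned vehicle (0) gave 2 with the filter at 50%, 67 with array weights, 1 with trended robust variances and 0 to 37 with arrays left out. Non-dyskinetic against intact (584) gave 991 with array weights and 222 to 710 with arrays left out. The cause of these changes was not tested. Whether replicate numbers pair the arrays was not settled. Residuals of same-numbered arrays had correlations from -0.268 to 0.383 in striatum (median 0.067) and from -0.290 to 0.294 in nigra (median 0.038). For differently numbered arrays they ran from -0.347 to 0.300 in striatum (median -0.04) and from -0.374 to 0.265 in nigra (median -0.007). The block on replicate numbers gave 694 and 683 genes for dyskinetic against non-dyskinetic and against lesioned vehicle striatum.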
